A study of Danio rerio with 2 samples.

Results

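The RFX and FOXJ1 genes of zebrafish, the main transcription factors of cilium genes, were compared between GFP(+) and GFP(−) cells. Genes were taken where the deposited symbol, or the symbol paired with the Ensembl identifier, was RFX1, RFX2, rfx3, RFX4, rfx5, RFX7, foxj1a, foxj1b, gmnc or mcidas, with or without a final a or b. This gave 8 genes by symbol, and ENSDARG00000059545, which carries no symbol in the table, was added as the gene that the study's list of human orthologues names FOXJ1. The resulting 9 genes, 7 of them RFX and 2 of them FOXJ1 genes, are among 17668 genes in all. They stand for 7 human genes, since RFX1 and FOXJ1 each had a pair of co-orthologues. Of the 10 names searched, foxj1a, gmnc and mcidas had no row under their own symbol and were not analysed here under these names, nor were the further identifiers of RFX7 (ENSDARG00000103691) and FOXJ1 (ENSDARG00000101919). Whether ENSDARG00000059545 is the gene called foxj1a could not be settled from the tables at hand.

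The cells came from Ppv3b-GFP larvae at 5 dpf, in which GFP marks predominantly, but by the study's wording not only, the hair cells (HCs) of ear and neuromasts. There was 1 library of GFP(+) cells, labelled hair cells, and 1 library of GFP(−) cells, labelled non-hair cells, which stands for the remaining cells of the whole larva. Both populations carried the transgene and came from dissociated whole larvae by flow cytometry, and polyA RNA was sequenced. No difference between them therefore has a replicate check, no test was made, and values are given with their counting error only.

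RFX proteins bind the X-box, a promoter motif of many genes of the ciliary basal body, the transition zone and intraflagellar transport. They act as homodimers and heterodimers, and RFX2 and RFX3 work together with FOXJ1, a forkhead factor that switches on the genes of the motile axoneme. HCs of zebrafish carry a true cilium, the kinocilium, beside the stereocilia of the hair bundle. RFX5 stands apart in the family, because it is best known from mammals as a subunit of the complex that drives MHC class II genes.

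The deposited values were reads per gene after quantile normalization with a floor of 20, so that both libraries held the same set of values, with a median of 186.0 and a sum of 19035170.5. They were not divided by transcript length, and levels of different genes were thus not compared. Ranks are given from the highest value (rank 1) to the lowest (rank 17668) within a library. GFP(+) values from 20 to 52.5, held by 3741 genes or 21.2% of the table, followed the order of the rows, with 0 falls down the table. The rows were sorted by deposited symbol, with genes without one in a block between. Such a GFP(+) value gives the position of a gene in the table and not its own level, and it is treated as an upper limit of 52.5. The plot of low GFP(+) values by position shows this rising line, on which RFX4 and RFX7 lie.

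**Figure D1:**
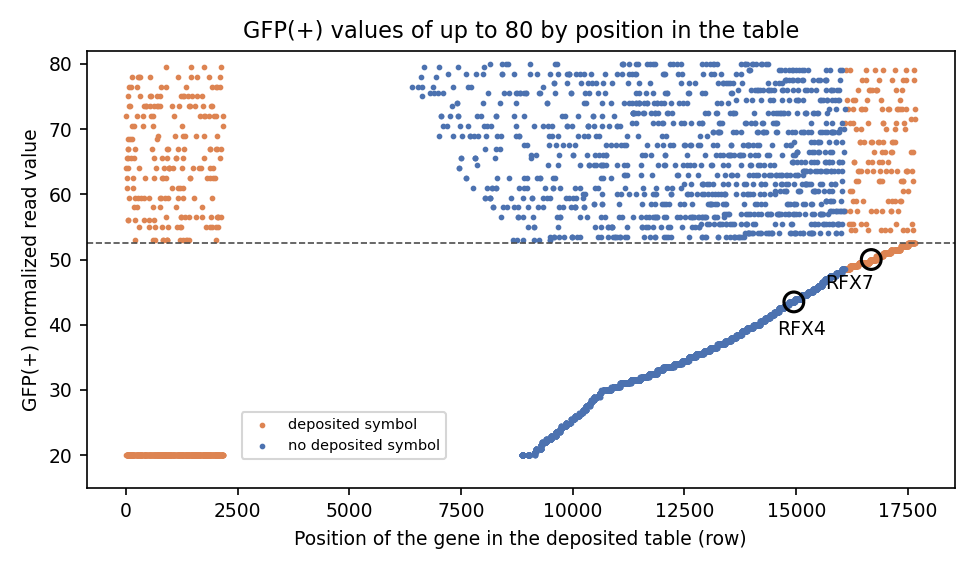
GFP(+) normalized read values of up to 80 (vertical axis) against the row of the gene in the deposited table (horizontal axis), with 1 point per gene, coloured by whether the table gives it a symbol. Up to the dashed line at 52.5 the 3741 points form a line that never falls, and RFX4 (43.5) and RFX7 (50), circled, lie on it, whereas values from 53.0 upwards are scattered over the rows.

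The same order made it possible to work back to reads. Each deposited value was the mean of the reads at 1 rank in both libraries, and reads that were equal kept their row order. A step back in row order between neighbouring values thus marks a rise by at least 1 read. Over 4026 steps between values, 0 went against this scheme, but only steps of the smallest size could have done so. Up to a value of 426.5 the reads were fixed exactly. The smallest larger read number of any gene was 40, the minimum named in the title of the table. Among 7862 genes without a deposited symbol and with exact reads, the read ratio rose 0 times down the rows. This second order narrowed the reads of the members with higher values to narrow ranges, which are given as such. Reads of 20 or fewer are all recorded as 20, and the total depth of the libraries is unknown. On the log2 scale, the median read ratio between GFP(+) and GFP(−) cells was −1.07 over all genes and −0.68 over the 13329 genes above 20 reads in both libraries, and read ratios are given relative to these centres. Counting intervals of 95% do not cover differences between larvae, sorts or libraries.

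The pair of RFX1 genes went in opposite directions. RFX1 is a widely expressed member of the family and a partner of RFX2 and RFX3 in dimers. RFX1 (ENSDARG00000075904) had a normalized read value of 494.0 in GFP(−) cells and of 1009.5 in GFP(+) cells, and was 2.04-fold higher in the latter. Its rank went from 4773 to 2553, and 24.6% of all genes had a ratio as high or higher. RFX1 (ENSDARG00000005883) had a value of 318.0 in GFP(−) cells and of 133.5 in GFP(+) cells, and was 2.38-fold lower in the latter. Its rank went from 6505 to 10307, and 21.1% of all genes had a ratio as low or lower. The log2 ratios of the genes, 1.03 and −1.25, differed by 2.28. Over all genes the quartiles of the log2 ratio were −1.03 and 1.01, so each gene lay near a quartile. In such bulk libraries, fewer cells that express a gene and less of its RNA per cell cannot be told apart.

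The reads behind these values were 614 to 616 in GFP(−) and 873 to 876 in GFP(+) cells for ENSDARG00000075904. They were 417 and 74 for ENSDARG00000005883. The centred log2 read ratio of the former was 1.58 (95% counting interval 1.42 to 1.73) with the centre of all genes and 1.18 (1.03 to 1.34) with that of genes above 20 reads in both. That of the latter was −1.42 (−1.80 to −1.06) and −1.82 (−2.20 to −1.46). The intervals of the pair did not overlap on either scale. A share within the pair needs no scaling between libraries. ENSDARG00000075904 held 59.6% of the pair's reads in GFP(−) cells (exact binomial interval 56.5 to 62.6%) and 92.2% in GFP(+) cells (90.3 to 93.8%). The shares depend on the lengths of both transcripts, whereas the odds ratio between the libraries, 7.99 to 8.04, does not. The range of this odds ratio comes only from the limits of the recovered reads and leaves out counting error. With the pair summed, RFX1 was 1.41-fold higher in GFP(+) cells, with 1143.0 against 812.0. How the counting divided reads between stretches that both copies share was not tested.

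**Figure D2:**
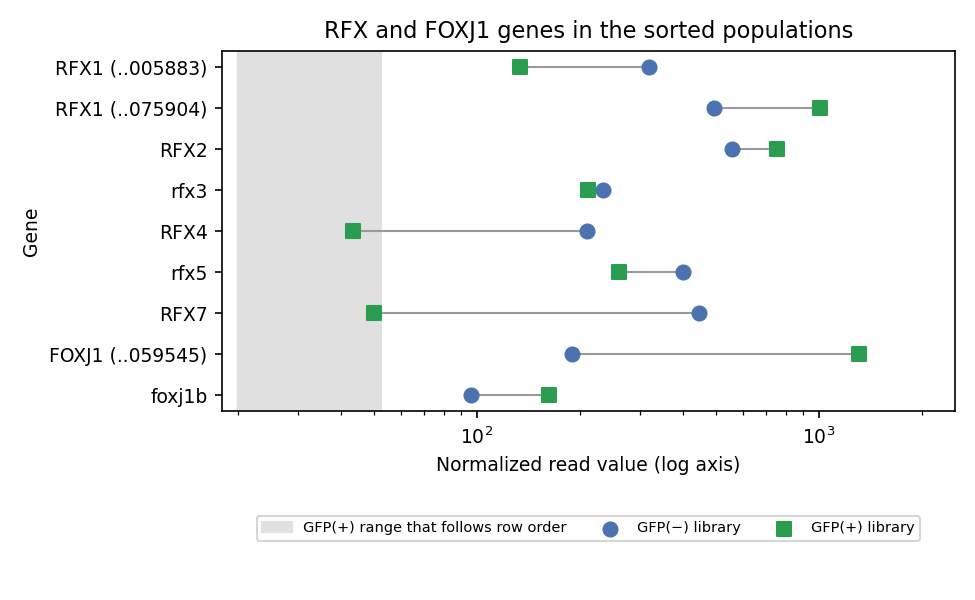
Normalized read values (horizontal log axis) of the 9 genes in the GFP(−) library (circles) and the GFP(+) library (squares), 1 library each and without error bars. The FOXJ1 gene ENSDARG00000059545 (190.0 to 1311.5) has the widest gap to the right, and RFX4 and RFX7 lie in the shaded GFP(+) range of up to 52.5, where values follow the order of the table.

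RFX2 and RFX3 are the members most closely tied to cilium formation, in fish as in mice. RFX2 (ENSDARG00000013575) had a normalized read value of 556.5 in GFP(−) and of 755.5 in GFP(+) cells, and was 1.36-fold higher in the latter, with ranks of 4373.5 and 3369. On centred reads its log2 ratio was 0.92 (95% counting interval 0.75 to 1.09) or 0.52 (0.36 to 0.69), depending on the centre. RFX2 was thus higher in the GFP(+) library on each of these scales. Before scaling its reads were fewer there, with 683 to 686 in GFP(−) and 615 to 618 in GFP(+) cells. By deposited values, 37.2% of all genes had a ratio as high as that of RFX2 or higher. The value of rfx3 (ENSDARG00000014550) was 234.0 in GFP(−) and 211.5 in GFP(+) cells, a 1.11-fold difference, and it rested on 317 and 134 reads. Its centred log2 read ratio was −0.17 (−0.47 to 0.12) with the centre of all genes and −0.57 (−0.87 to −0.27) with the other. The first interval holds 0 and the second does not. Both cover counting error only, so with 1 library each neither could decide whether rfx3 was lower in GFP(+) cells.

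RFX4, a factor of the neural tube and the brain, was low in GFP(+) cells. RFX4 (ENSDARG00000026395) had 288 reads and a normalized read value of 210.5 in GFP(−) cells. In GFP(+) cells it had 20 reads or fewer, and its deposited value of 43.5 is of the kind that follows row order. Set against 52.5, it was at least 4.01-fold lower in GFP(+) cells. The summed values of 10 neuron markers went the same way, with 7458.5 in GFP(−) and 969.0 in GFP(+) cells, where 3 of them were row-ordered, and their part in the value of RFX4 was not tested.

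RFX7, like RFX4, had only an upper limit in GFP(+) cells. It is known from mice for its part in the maintenance of natural killer cells. RFX7 (ENSDARG00000077237) had 559 to 560 reads and a normalized read value of 445.5 in GFP(−) cells, at rank 5196.5. In GFP(+) cells it had 20 reads or fewer and a deposited value of 50, again in the range that follows row order, so that it was at least 8.49-fold lower. The value of rfx5 (ENSDARG00000063258) was 400.5 in GFP(−) and 260.5 in GFP(+) cells, with 509 and 172 reads, and it was 1.54-fold lower in the latter. Its centred log2 read ratio was −0.49 (95% counting interval −0.75 to −0.24) or −0.89 (−1.15 to −0.64). By deposited values, 34.0% of all genes had a ratio as low as that of rfx5 or lower.

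The FOXJ1 genes had higher deposited values in GFP(+) cells, by different amounts. FOXJ1 (ENSDARG00000059545) had a normalized read value of 190.0 in GFP(−) cells and of 1311.5 in GFP(+) cells, and was 6.90-fold higher in the latter. Its rank went from 8750, about the middle of the table, to 1964.5. Only 7.18% of all genes had a ratio as high or higher. The reads were 264 in GFP(−) and 1181 to 1188 in GFP(+) cells, with a centred log2 read ratio of 3.24 (95% counting interval 3.04 to 3.44) or 2.84 (2.64 to 3.04). This gene was the only member with a ratio of 3-fold or more in favour of GFP(+) cells.

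The value of foxj1b (ENSDARG00000088290), which in zebrafish is expressed in the developing otic vesicle, was 96.5 in GFP(−) and 162.5 in GFP(+) cells, a 1.68-fold difference. It rested on fewer reads, 144 and 95, and thus on more reads in GFP(−) than in GFP(+) cells before scaling. Its centred log2 read ratio was 0.47 (0.08 to 0.85) with the centre of all genes and 0.08 (−0.31 to 0.46) with that of genes above 20 reads in both. A higher level of foxj1b in the GFP(+) library thus depended on the centre. By deposited values, 30.1% of all genes had a ratio as high as that of foxj1b or higher. Within the pair, ENSDARG00000059545 held 64.7% of the reads in GFP(−) cells (59.9 to 69.3%) and 92.6% in GFP(+) cells (91.0 to 94.0%). The odds ratio was 6.78 to 6.82, a range that again leaves out counting error. With the pair summed, FOXJ1 was 5.14-fold higher in GFP(+) cells.

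**Figure D3:**
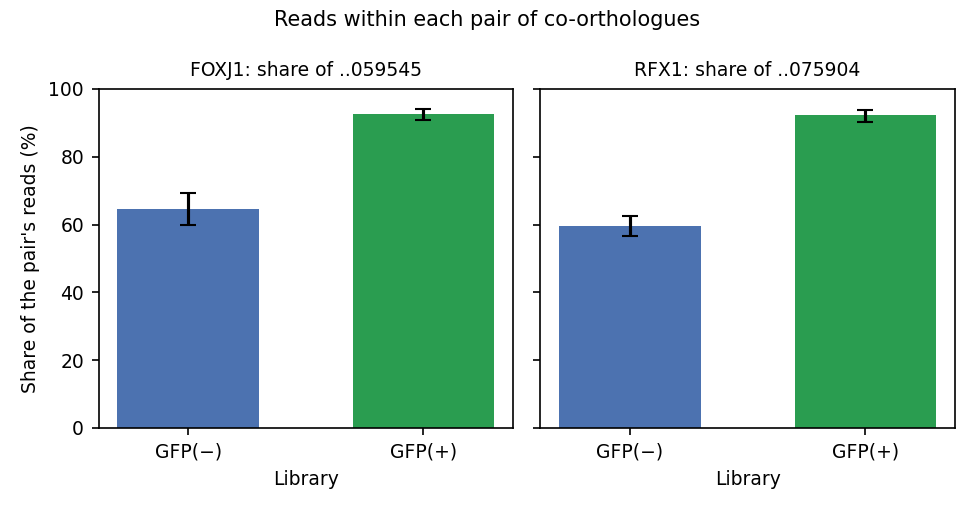
Share (%, vertical axis) of the pair's reads held by the FOXJ1 gene ENSDARG00000059545 (left) and by the RFX1 gene ENSDARG00000075904 (right) in the GFP(−) and the GFP(+) library, 1 library each, with exact 95% binomial intervals for counting error. Both shares were between 56.5 and 69.3% in GFP(−) and between 90.3 and 94.0% in GFP(+) cells, intervals included.

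The makeup of the RFX reads was also compared, which needs no scaling between libraries. A share also rises where the reads of other members fall, so a larger share does not by itself give a higher level. The 7 RFX genes had 3387 to 3393 reads in GFP(−) and 1868 to 1914 in GFP(+) cells. With exact 95% binomial intervals for counting error, the RFX1 gene ENSDARG00000075904 held 16.8 to 19.5% of them in GFP(−) and 43.4 to 49.1% in GFP(+) cells. RFX2 held 18.8 to 21.6% and 30.1 to 35.2%. These were the only RFX genes with a larger share in GFP(+) cells. ENSDARG00000005883 went from 11.2 to 13.5% in GFP(−) to 3.05 to 4.95% in GFP(+) cells, and rfx5 from 13.8 to 16.3% to 7.74 to 10.6%. The intervals of rfx3, 8.38 to 10.4% and 5.90 to 8.44%, overlapped at their ends. RFX4, with 7.57 to 9.49% in GFP(−) cells, and RFX7, with 15.2 to 17.8%, had at most 1.63% each in GFP(+) cells. Of the reads of all 9 genes, the FOXJ1 pair held 9.77 to 11.8% in GFP(−) and 38.3 to 42.5% in GFP(+) cells.

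**Figure D4:**
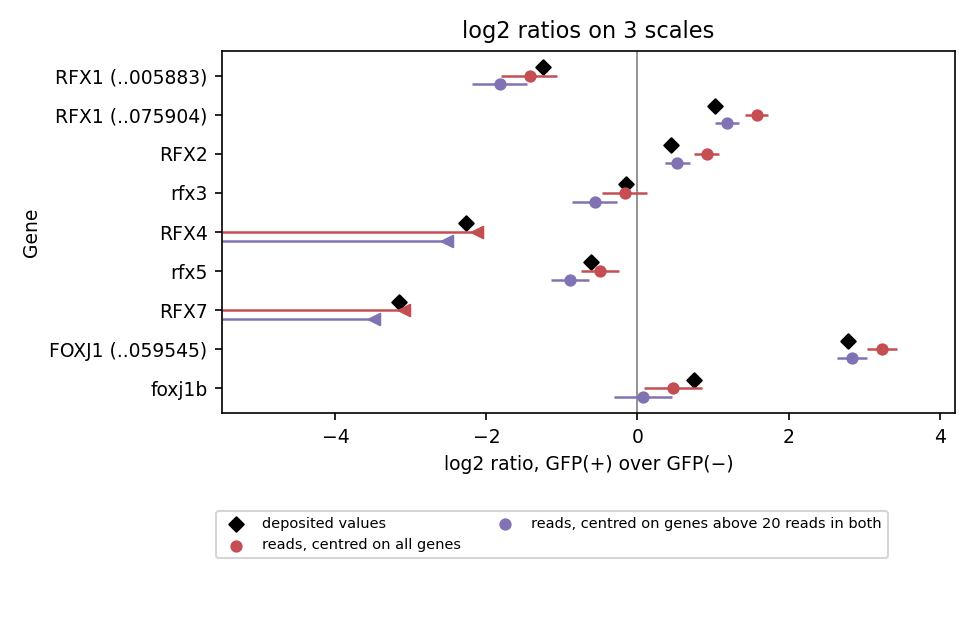
The log2 ratio of GFP(+) to GFP(−) expression (horizontal axis) for the 9 genes from the deposited values (diamonds) and from reads centred on the median of all genes or of genes above 20 reads in both libraries (circles), with 95% counting intervals as lines. Triangles give the upper limits for RFX4 and RFX7 (−2.12 and −3.09 with the centre of all genes). For rfx3 and for foxj1b, 1 of the intervals each holds 0.

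As a group the 9 genes had a median log2 ratio of −0.15, against −0.10 over all genes, with 4 genes higher and 5 lower in GFP(+) cells. At least 3-fold higher was 1 of 9, against 16.9% of all genes. At least 3-fold lower were 2 of 9, RFX4 and RFX7, against 16.4% of all genes, or 14.2% with all row-ordered GFP(+) values set to 52.5. Counts of this size among 9 genes are near the background. With the centre of genes above 20 reads in both, RFX1 (ENSDARG00000005883) was also past the 3-fold limit, although its interval reached back over it.

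By Euclidean distance in the plane of the log2 values of both libraries, the named genes nearest to ENSDARG00000059545 were RAB32 (0.09), mpzl2b (0.12) and dnajc5gb (0.12). Nearest to foxj1b were ZFAND4 (0.02), DGCR6 (0.04) and nudt22 (0.05). With 2 libraries this likeness says only that these genes had similar values in each.

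The genes known as targets of these factors differed between classes of cilium genes. Of 41 genes of the motile axoneme, the class under FOXJ1, GFP(+) cells had 36 at a level of 3-fold or more, with a median log2 ratio of 2.55. On centred reads these were 34 or 30 genes, by the centre. TEKT3, a filament protein of axonemal doublets, was 17.4-fold higher. DNAH5, an outer dynein arm heavy chain, was 16.8-fold higher. By deposited values DNAH8, another dynein heavy chain, was the only gene of the list that was lower, with 310.0 in GFP(−) and 73.5 in GFP(+) cells. It was 4.22-fold lower. For hydin, of the central pair, the values were 245.5 and 296.5, and its log2 ratio on centred reads was 0.36 or −0.04.

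Of 21 genes of intraflagellar transport, a classical class of RFX targets, 3 were at least 3-fold higher and 1 was at least 3-fold lower, with a median log2 ratio of 0.14. On centred reads this median was 0.03 or −0.36, and it was thus of either sign. With either centre 2 genes were at least 3-fold higher, since IFT22 dropped below this limit (log2 1.46 or 1.07). By deposited values the 3 were KIF17 (22.0 in GFP(−) and 181.0 in GFP(+) cells), a kinesin of cilia, TRAF3IP1 (79.0 and 327.5) and IFT22 (27.5 and 92.0), both parts of the IFT-B complex. KIF17 and IFT22 and the lower gene, a KIFAP3 gene (ENSDARG00000006862, 175.5 in GFP(−) and at most 52.5 in GFP(+) cells), were named after their values were seen. Of 22 genes of the BBSome and the transition zone, TMEM231 was at least 3-fold higher, at 86.5 and 373.5, and CEP290 and BBS2 at least 3-fold lower, at 811.0 and 227.5 and at 231.0 and 60.5. Their median was 0.32 by deposited values and −0.08 or −0.47 on centred reads, so that its sign, too, depended on the scale. By deposited values 16.9% of all genes were at least 3-fold higher and 16.4% at least 3-fold lower. The counts of both lists were not above these shares.

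**Figure D5:**
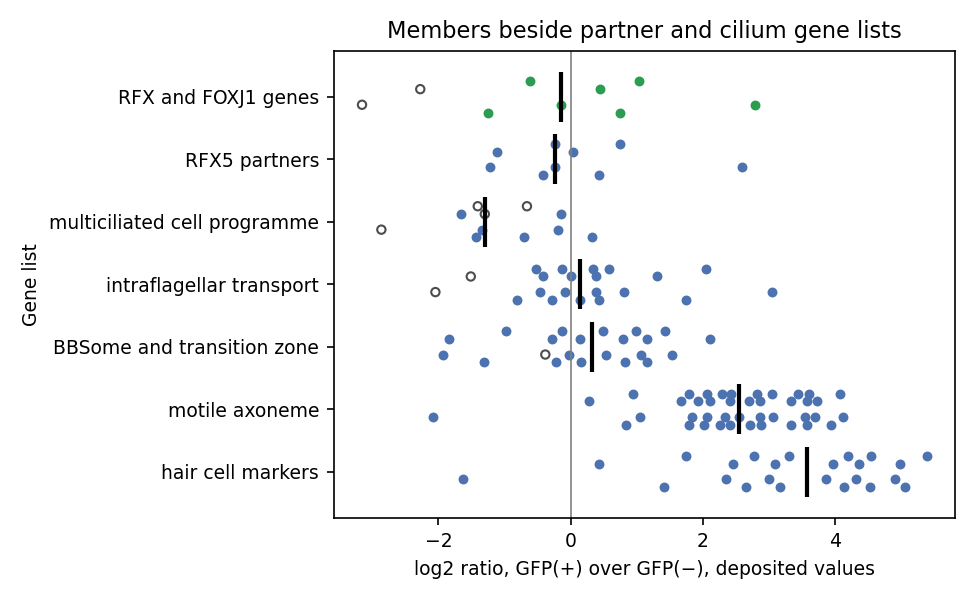
The log2 ratio of GFP(+) to GFP(−) expression by the deposited values (horizontal axis) for the RFX and FOXJ1 genes and for 6 gene lists (rows), with 1 point per gene and a bar at the median of each list. Open points have a GFP(+) value of up to 52.5. The median of the motile axoneme list (2.55) lies far to the right of those of the RFX and FOXJ1 genes (−0.15) and of intraflagellar transport (0.14).

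RFX5 acts in mammals with RFXAP and RFXANK and beside the NF-Y and CREB factors. Of 9 such genes, by deposited values, 4 were higher and 5 lower in GFP(+) cells, and only RFXANK was at least 3-fold apart. RFXANK was at the floor in GFP(−) cells, with 20 reads or fewer, and had a value of 120.0 and 65 reads in GFP(+) cells. RFXANK was 6.0-fold higher by deposited values. With GFP(−) reads at the floor, its log2 ratio on centred reads was at least 2.77 or 2.38, before counting error. RFXAP had a value of 396.5 in GFP(−) and of 298.0 in GFP(+) cells, and like rfx5 it was lower on each scale. The NF-Y subunits were split, with nfybb 1.68-fold higher and NFYB (ENSDARG00000039185) 2.16-fold lower in GFP(+) cells. The differences of NFYC (115.0 and 154.0) and of the NFYA genes (139.0 and 143.0 for ENSDARG00000001621, 607.5 and 513.0 for ENSDARG00000042004) changed sign between the deposited values and 1 or both of the centred read scales. The CREB1 genes were 1.18-fold lower (ENSDARG00000093420) and 2.33-fold lower (creb1a). Of the list of MHC class II genes and their processing factors 4 genes were matched, namely mhc2dab, the invariant chain genes cd74a and cd74b, and the cathepsin gene ctss1. Of these, cd74b had values of 73.5 and 72.5, and mhc2dab, cd74a and ctss1, at 34.5, 45.5 and 112.0 in GFP(−) cells, were at or below 52.5 in GFP(+) cells. These 4 were named after their values were seen.

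Regulators and centriole genes that act around GMNC and MCIDAS in multiciliated cells were mainly lower in GFP(+) cells. Of 15 symbols in this list only 9 were matched, which gave 11 genes. By deposited values 10 of the 11 genes had lower and 1 a higher value, with a median log2 ratio of −1.30. At least 3-fold lower were 2 of 11, near the 16.4% of all genes, and 0 were at least 3-fold higher. Over all genes 47.5% had a higher value in GFP(+) cells. The exception was a TFDP1 gene (ENSDARG00000016304), the dimer partner of the E2F factors, with 275.5 in GFP(−) and 345.5 in GFP(+) cells. The other TFDP1 gene (ENSDARG00000019293) was 2.69-fold lower. MYB, a transcription factor of progenitors and multiciliated cells, was 3.16-fold lower, with 666.0 against 210.5. PLK4 and CEP152, which start new centrioles, were 2.54-fold and 1.63-fold lower. GMNN, an inhibitor of replication licensing, and cdkn1a, a cell cycle inhibitor, had values of 140.5 and 3969.0 in GFP(−) and of 123.0 and 3572.5 in GFP(+) cells. The reads of cdkn1a could not be narrowed enough to give its direction. SASS6, stil and the pair of HES6 genes had GFP(+) values of at most 52.5, against 53.0, 93.5, 102.0 and 331.0 in GFP(−) cells. FOXN4, a forkhead factor known from frogs for multiciliated cells, was 6.67-fold lower, with 544.0 against 81.5. Of the relatives of FOXJ1, FOXJ2 had values of 261.5 and 327.5. FOXJ3, named after its values were seen, had 63.5 and 88.5, a difference that turned on centred reads.

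The GFP(+) library carried HC markers and also markers of the superficial epidermis. The study gives a high post-sort purity for GFP(+) cells, and the cell makeup was not measured here. Of 24 HC marker genes, 21 were higher by 3-fold or more, and their summed values were 2231.5 in GFP(−) and 16204.5 in GFP(+) cells. Of 20 genes of HC transcription factors, 8 were higher and 7 lower by this limit, against 16.9% and 16.4% of all genes. The 7 included GFI1B, a gene other than GFI1, with 141.0 in GFP(−) and at most 52.5 in GFP(+) cells. With row-ordered values at 52.5, GFI1B was no longer past the limit and 6 were lower. On reads centred on genes above 20 reads in both, 5 were higher. POU4F3, which HCs need to survive, had 44.0 and 902.0. Among the lower genes were INSM1 (ENSDARG00000091756), at 1054.0 and 126.5, and HES6 (ENSDARG00000019335), at 331.0 and at most 52.5. POU4F3, gfi1aa and ATOH1 are in both HC lists, and the HES6 genes are also in the multiciliated cell list. All 10 markers of the superficial epidermis were higher by this limit as well, and they took 0.704% of all values in GFP(−) and 9.17% in GFP(+) cells. Most of the latter was krt4, which was named after its values were seen. It had the highest value of all genes, 978726.0, and its GFP(+) reads were bounded only to 34446 to 1955248. These percentages are of normalized values and not of RNA or cells. Markers of olfactory sensory neurons, of the lining of the spinal canal and of the pronephric tubule were low or split. Of 6 olfactory sensory neuron genes, 3 were at or below 52.5 in GFP(+) cells, and their summed values were 925.0 and 2350.0. RIC8B alone, which is not confined to these neurons, had 412.0 and 1979.5 of them. Of 5 genes of the lining of the spinal canal, whose values summed to 309.0 in GFP(−) cells, 4 were at or below 52.5 in GFP(+) cells, and urp1 had 119.0 and 55.5 and was named after its values were seen. Of 9 genes of the pronephric tubule, 4 were at least 3-fold lower, or 3 with row-ordered values at 52.5, CDH17 and HNF4A among them. By deposited values, 4 of the 9 were higher and 5 lower. Both PAX2 genes were higher, and they were named after their values were seen. ENSDARG00000032578 went from the floor to 133.0 and ENSDARG00000028148 from 159.5 to 419.0. The sums of the 9 genes, 24529.0 and 30303.5, were mainly those of SLC20A1 (ENSDARG00000010641), at 17557.5 and 28482.5. The other SLC20A1 gene (ENSDARG00000020114) had 4210.5 in GFP(−) and at most 52.5 in GFP(+) cells. Of the 10 neuron markers, 9 were at least 3-fold lower in GFP(+) cells. Of 7 leukocyte genes, 6 were so, with sums of 12519.5 and 2321.5. The other, an MPEG1 gene (ENSDARG00000043093), was 3.56-fold higher in GFP(+) cells. Its values were 476.0 in GFP(−) and 1692.5 in GFP(+) cells, and it made up most of the GFP(+) sum. The part of these cell types in the values of the RFX and FOXJ1 genes was not tested.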

How the data were processed

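RNA-seq data of 1 GFP(+) and 1 GFP(−) library were analysed. The authors made TruSeq libraries, aligned reads to Zv9 with TopHat, took counts per Ensembl gene from HTSeq, and applied quantile normalization and a floor of 20. Versions are not given in the sources used here. The values themselves show the floor to precede the normalization. The deposited signal is thus a normalized read number per gene. The ratio and its log2 were computed without a pseudocount, and 3-fold was the limit for counts of genes. Names came from deposited symbols and from a table that matched 14593 identifiers. Reads were recovered from row order, and the recovery was run on simulated data. The simulated data were made by the scheme that the recovery assumes. That run therefore checks the code and not how the deposited values were made. Intervals are 95% Clopper-Pearson limits and cover counting error only. They treat reads as independent. PCR reads are not independent molecules, so the intervals may be too narrow even for counting error. Members and lists were chosen with earlier results of these data known. Named were all members, all genes of the RFX5 and multiciliated cell lists, examples from the 2 highest and 2 lowest ratios of other lists among genes reaching 200, and the 3 genes nearest to each FOXJ1 gene. POU4F3, ATOH1, GFI1B and HNF4A, like the genes so marked above, were named outside this rule, after their values were seen. No sequence and no coordinate was used here. Alternatives were pseudocounts of 20 and 100, a minimum mean of 100, centring, GFP(+) values of up to 48 set to 48, omission of ENSDARG00000059545, summed co-orthologues and a 2-fold limit. Added after the data had been seen were row-ordered values set to 52.5 and the centred reads. Python 3.11.15 was used with matplotlib 3.10.9, scipy 1.17.1, numpy 2.4.6 and pandas 2.3.3.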

Additional observations from a re-analysis of the deposited data

How the results depend on the processing

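No paired analysis was possible because each population had 1 library. The number of the 9 genes at least 3-fold higher in GFP(+) cells was 1 under each setting except 0 without ENSDARG00000059545 and 2 with a 2-fold limit. The number at least 3-fold lower was 2, except 1 with a pseudocount of 100 and 3 with a 2-fold limit or with reads centred on genes above 20 reads in both. With co-orthologues summed these counts were of 7 genes, and without ENSDARG00000059545 of 8. Over all genes the quartiles of the log2 ratio were −1.03 and 1.01, just past the 2-fold limit. The counts with that limit are thus near the background. The share of all genes past the 3-fold limit was not computed on centred reads. The median log2 ratio, −0.15, was −0.13 and −0.10 with pseudocounts of 20 and 100, −0.043 after centring on all genes, −0.38 without ENSDARG00000059545, and −0.17 and −0.57 with reads centred on all genes and on genes above 20 reads in both. Of 54 recomputed log2 ratios of single genes, 0 changed sign. Many of them could not have done so. A pseudocount added to both values cannot turn the sign of a ratio. Raising row-ordered GFP(+) values to the top of their range altered only RFX4 and RFX7, whose GFP(−) values lie above that range. Only the settings with centring, at 9 ratios each, could have changed a sign. Reads of 20 or fewer leave only upper limits for RFX4 and RFX7 in GFP(+) cells, and the centre decides whether the intervals of foxj1b and rfx3 hold 0.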
